A study of Mus musculus with 12 samples.

Results

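The 45 genes described here encode proteins of mitosis and of the spindle checkpoint. They were chosen by name, as a list of well-known mitosis genes, out of 18195 genes that the array measures with a probe set annotated to a single gene. For 44 of the 45 such a probe set existed, and all 44 passed the filter on low values, among 9025 genes that did. The exception was Ccnb1, which encodes cyclin B1, and no level is given for it. Where a gene had several probe sets, the one with the highest mean over the 6 arrays represents it.

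MEL (mouse erythroleukemia) is a line of leukemic red cell precursors that dimethyl sulfoxide (DMSO) induces to mature. Total RNA of 3 wild type samples and of 3 samples with knockdown of G9a, which the gene Ehmt2 encodes and which methylates lysine 9 of histone H3, was hybridized to Affymetrix mouse arrays. The question the design addresses is the part of G9a in β-globin expression. DMSO at 2% was present for 4 days in both groups, and doxycycline (Dox in the labels) at 5 µg/ml switched the knockdown on. One protocol text stands for both groups. It leaves out whether wild type cells received doxycycline too, whether the knockdown line was a single clone, what a replicate number stands for, or whether replicates were separate cultures. The p-values therefore rest on the spread among these 6 arrays alone, part of which may be technical.

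Mitosis is driven by the kinase Cdk1 with its cyclins and is carried through by Polo-like and Aurora kinases, motor proteins and the kinetochores that tie chromosomes to the spindle. The spindle checkpoint holds the anaphase-promoting complex in check until every kinetochore is attached, and separase then cuts the cohesin that joins sister chromatids. Many of these mRNAs are made mainly in the G2 and M phases of the cell cycle, and erythroid cells stop dividing as they complete maturation. In RNA from a whole culture, fewer dividing cells and less of an mRNA per cell cannot be told apart.

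The 6 arrays were alike in overall level, with medians over the 17028 tested probe sets of 8.09 to 8.20 on the GCRMA log2 scale, the scale of all levels below unless stated. All 3 knockdown arrays were below all 3 wild type arrays for Ehmt2. Its brighter probe set read 9.92, 10.03 and 10.23 in wild type and 6.67, 7.33 and 7.58 in the knockdown. In limma this was −2.87 (95% interval −3.24 to −2.49) with an adjusted p of 0.0316. The fitted model had group and replicate number as terms, and p-values were adjusted by the Benjamini-Hochberg method over all tested probe sets, with a threshold of 0.05. Of 13 erythroid markers 10 had a probe set and 9, among them Gata1, Klf1 and Alas2, passed the filter. Hba-a1, an adult alpha-globin gene, did not, with at most 2.49 in any array. That was the only probe set annotated to Hba-a1 alone, and probe sets annotated to several genes were left out. The globin level of these cells therefore cannot be read from it. In limma 0 of the 9 passed the threshold for group or replicate number, and 2 had an unadjusted p under 0.05 between replicates 3 and 1, against 22.6% of all tested probe sets, with 1 in each other comparison. The log2 levels of the 10, Hba-a1 included, summed to 107.1 to 108.6 per array. The lymphoid, mast cell and fibroblast or endothelial markers did not pass the filter, with at most 3.42 in any array.

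The mitosis genes separated the arrays by replicate number and not by group. Both replicate 1 arrays, wild type and knockdown, were above the other 4 arrays for 43 of the 44 genes, against 17.8% of all tested probe sets. The exception was Cenpe, which encodes a kinetochore motor. Relative to each gene's mean over 6 arrays, the median over the 44 genes was 0.72 in wild type 1 and 0.66 in knockdown 1. It was −0.09 and −0.19 in wild type 2 and knockdown 2, and −0.66 and −0.41 in wild type 3 and knockdown 3. The median over all tested probe sets lay between −0.02 and 0.05 in every array. Wild type 3 was the lowest array for 32 of the 44 genes, beside 3308 of the 17028 tested probe sets.

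**Figure D1:**
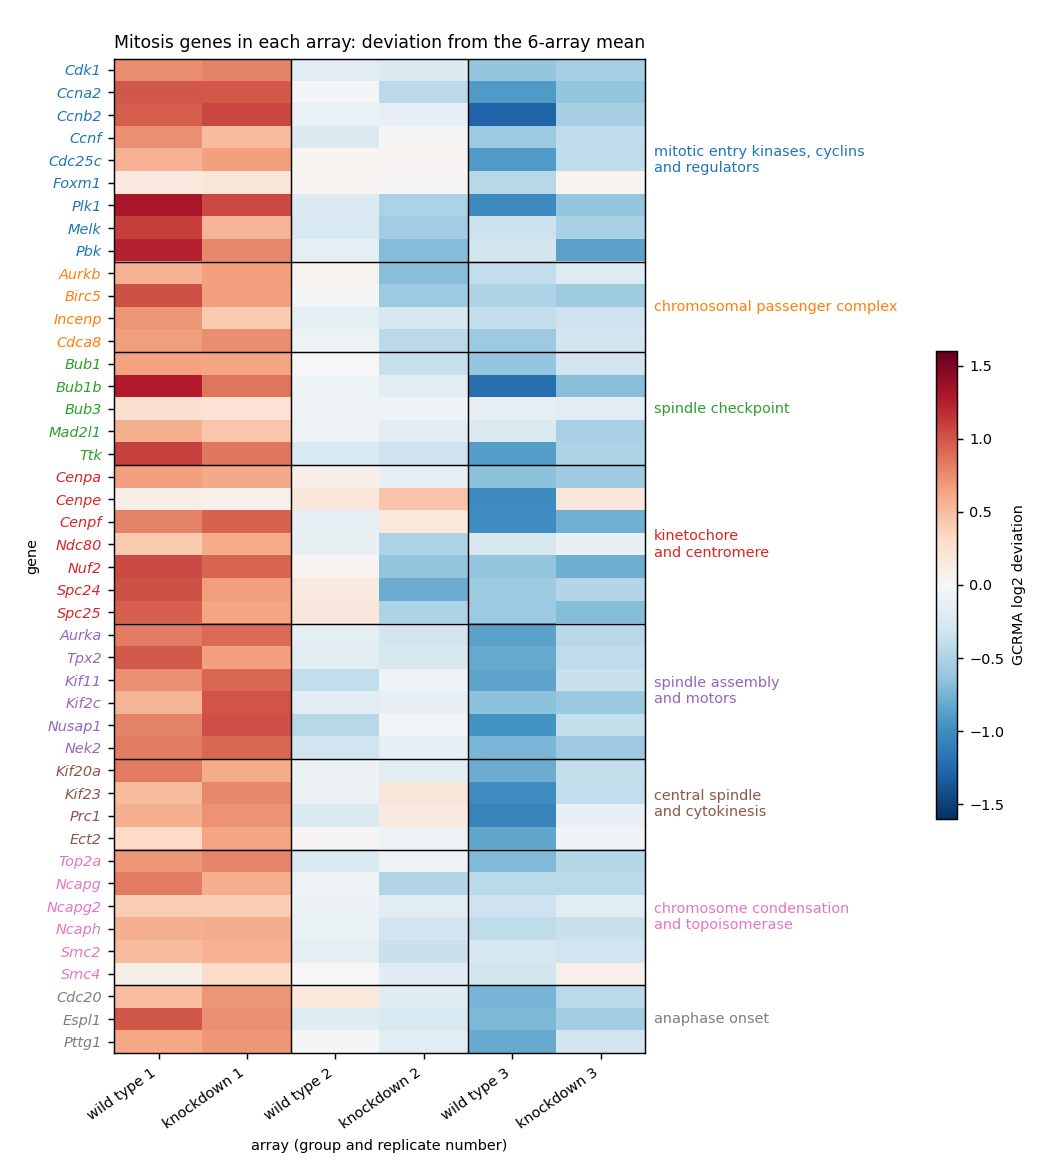
Deviation of each mitosis gene from its own mean over 6 arrays (GCRMA log2, color), with 44 genes in rows grouped by role and the 6 arrays in columns paired by replicate number. The replicate 1 columns are above the mean in both groups, and the lowest values are in wild type 3, where the median deviation is −0.66.

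Replicate 2 minus replicate 1, with the group as a term, was below 0 for 43 of 44 genes, against 56.1% of all tested probe sets, and the median difference was −0.91. In that comparison 21 of the 44 genes were lower at the threshold, or 47.7%, against 1.63% of all tested probe sets. Replicate 3 minus replicate 1 was below 0 for all 44 genes, against 55.8%, and ran from −2.01 to −0.31 with a median of −1.28. Here 33 of the 44 genes were lower at the threshold, or 75%, against 1.5% of all tested probe sets. Both comparisons use the replicate 1 arrays, so they are not independent of each other. The median over all tested probe sets was −0.04 in both.

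Between replicates 3 and 2 the difference was below 0 for 42 of 44 genes, against 49.8% of all tested probe sets, with a median of −0.40. In limma 0 genes passed the threshold there, as did 0% of all tested probe sets. At an unadjusted p under 0.05 there were 17 of 44 genes, or 38.6%, against 11.3% of all tested probe sets. The moderated F test over the 3 replicate numbers called 24 of 44 genes, or 54.5%, against 2.25% of all tested probe sets.

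Within each group every replicate number is a single array, so its differences have no test. Replicate 2 minus replicate 1 had a median of −0.86 in wild type and −0.98 in the knockdown. Replicate 3 minus replicate 1 had a median of −1.43 in wild type and −1.10 in the knockdown. Replicate 3 minus replicate 2 had a median of −0.52 in wild type, below 0 for 44 of 44 genes, and −0.16 in the knockdown, below 0 for 32. Of the 17028 tested probe sets, 8404 were below 0 in wild type and 8106 in the knockdown. Whether the groups differ in this was not tested.

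The 3′ to 5′ signal ratio of β-actin, a sign of RNA and labeling quality, moved with the replicate numbers. It was 0.97, 1.10 and 1.19 in wild type and 1.00, 1.08 and 1.07 in the knockdown on the log2 scale, so the lowest ratios were those of the replicate 1 arrays. The same ratio for Gapdh was 0.01, 0.06 and 0.16 in wild type and 0.03, 0.05 and 0.04 in the knockdown. Among markers of other blood lineages, Cebpa, a myeloid transcription factor, read 6.60, 5.49 and 5.98 in wild type and 6.78, 6.09 and 6.25 in the knockdown. It was lower in replicate 2 than in replicate 1 (−0.90, adjusted p = 0.0432) and differed by −0.58 between replicates 3 and 1 (adjusted p = 0.106). Pf4, a platelet chemokine, differed by −1.44 between replicates 3 and 1 (adjusted p = 0.0581). The other markers of these lineages that passed the filter did not move alike in that comparison. Prtn3 differed by −1.03, Csf1r by 0.16 and Itga2b by 0.16 (adjusted p = 0.15, 0.644 and 0.69). In all, 3 of 8 myeloid and 2 of 5 megakaryocyte markers passed the filter. Over all those with a probe set, passing or not, the log2 levels summed to 25.5 to 28.5 per array for 7 myeloid markers and to 26.8 to 31.1 for 5 megakaryocyte markers. The part of RNA quality or of other cell types in the differences between replicate numbers was not tested.

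Promoters of genes expressed late in the cell cycle are known for CCAAT boxes, bound by NF-Y, and for the TTTGAA motif called the cell cycle genes homology region. RefSeq promoter windows on GRCm38.p6, from 250 bases before to 50 after a listed start, were available for 35 of the 45 genes. Both strands were searched, so ATTGG and TTCAAA count as matches. CCAAT stood in 25 of 35 windows (71.4%), against 41.1% of the 27025 genes in the table and 43.8% of those with a tested probe set. TTTGAA stood in 24 of 35 (68.6%), against 20.2% and 13.8%. Both motifs together were in 21 of 35 (60%), against 8.97% and 6.8%. The variant TTCGAA, which reads alike on both strands, was in 3 of 35 (8.57%), against 1.8% and 2.54%.

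Both motifs fell within the last 100 bases before a start in 7 genes, and 6 of these stretches are shown so that the motifs can be set beside the differences between replicate numbers. Capitals mark CCAAT or ATTGG and TTTGAA or TTCAAA, and each run is read 5′ to 3′ along the gene's strand.
Cdk1 (chr10:69352913-69353012, minus strand): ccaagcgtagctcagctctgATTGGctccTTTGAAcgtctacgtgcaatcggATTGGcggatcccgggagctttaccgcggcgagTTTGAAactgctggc
Top2a (chr11:99024190-99024289, minus strand): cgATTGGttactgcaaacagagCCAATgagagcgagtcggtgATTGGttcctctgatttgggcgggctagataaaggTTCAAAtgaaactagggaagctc
Cdc20 (chr4:118437344-118437443, minus strand): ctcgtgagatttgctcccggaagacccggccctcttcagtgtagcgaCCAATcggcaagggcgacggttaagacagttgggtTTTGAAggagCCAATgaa
Espl1 (chr15:102296193-102296292, plus strand): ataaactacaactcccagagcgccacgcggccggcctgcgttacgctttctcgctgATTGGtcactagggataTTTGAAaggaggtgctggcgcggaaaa
Kif11 (chr19:37376282-37376381, plus strand): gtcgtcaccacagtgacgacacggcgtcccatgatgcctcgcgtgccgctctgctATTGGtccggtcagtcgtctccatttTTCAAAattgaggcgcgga
Bub3 (chr7:131560270-131560369, plus strand): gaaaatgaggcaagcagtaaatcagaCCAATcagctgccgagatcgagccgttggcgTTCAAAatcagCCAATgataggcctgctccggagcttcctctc
The 6 genes shown differed between replicates 3 and 1 by −1.34, −1.32, −1.19, −1.50, −1.42 and −0.40, in the order printed. Bub3, with a TTCAAA and a pair of CCAAT boxes, had the smallest of these differences. Over the 34 measured genes with a window, the median difference between replicates 3 and 1 was −1.32 for the 24 with TTTGAA and −1.24 for the 10 without. A match is a run of letters in a window and was not tested as a binding site.

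In the accounts by role that follow, the 3 values of a group are in the order of replicate numbers 1, 2 and 3, and a difference is replicate 3 minus replicate 1 with its standard error, unless another pair is named. Adjusted p-values are limma's. Beside the counts of genes lower at the threshold, 1.5% of all tested probe sets were lower in replicate 3 than in replicate 1. For replicate 2 that share was 1.63%.

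Of 9 measured genes for kinases, cyclins and regulators of mitotic entry, 8 were lower in replicate 3 than in replicate 1 at the threshold and 5 in replicate 2. Plk1, the Polo-like kinase that acts in mitotic entry and spindle assembly, at probe set 1448191_at read 9.29, 7.77 and 6.96 in wild type and 9.04, 7.48 and 7.36 in the knockdown. Its difference was −2.01 ± 0.20 (adjusted p = 0.022), a 4.02-fold lower level, and between replicates 2 and 1 it was −1.54 (adjusted p = 0.0307). The knockdown values lay within the range of the wild type values, and the highest array of each group was that of replicate 1. Cdk1 itself, whose promoter is printed above, read 10.01, 9.09 and 8.65 in wild type and 10.06, 9.04 and 8.73 in the knockdown. It differed by −1.34 ± 0.12 (adjusted p = 0.0186) and by −0.97 between replicates 2 and 1 (adjusted p = 0.0283), and arrays of the same number differed by at most 0.08 between groups.

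Ccna2, which encodes cyclin A2, read 9.96, 8.95 and 8.06 in wild type and 9.94, 8.53 and 8.34 in the knockdown, a difference of −1.75 ± 0.19 (adjusted p = 0.0247). For Ccnb2, the gene of cyclin B2, the levels were 9.68, 8.60 and 7.43 in wild type and 9.78, 8.57 and 8.17 in the knockdown, a difference of −1.93 ± 0.21 (adjusted p = 0.0247). Ccnf encodes the F-box protein cyclin F and read 8.88, 7.92 and 7.56 in wild type and 8.65, 8.12 and 7.74 in the knockdown, with a difference of −1.12 ± 0.15 (adjusted p = 0.0348). In these 3 cyclin genes wild type 3 was the lowest array, below knockdown 3. Cdc25c, a phosphatase that activates Cdk1, read 7.50, 6.97 and 6.04 in wild type and 7.60, 6.99 and 6.54 in the knockdown and differed by −1.26 ± 0.16 (adjusted p = 0.0294).

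Pbk and Melk, both kinase genes known for high expression in dividing cells, had their lowest values in knockdown arrays. Pbk read 9.19, 7.80 and 7.66 in wild type and 8.73, 7.26 and 7.10 in the knockdown, a difference of −1.58 ± 0.12 (adjusted p = 0.0175). Melk read 7.23, 5.88 and 5.78 in wild type and 6.67, 5.57 and 5.60 in the knockdown, a difference of −1.26 ± 0.14 (adjusted p = 0.0247). For Melk replicates 2 and 3 differed by −0.03, so its level separated replicate 1 from both others alike. Foxm1, the forkhead factor that drives many genes of this kind, read 5.11, 4.99 and 4.51 in wild type and 5.14, 4.97 and 4.99 in the knockdown and did not pass (−0.37, adjusted p = 0.255). It was dim at this probe set, and its probe set 1448834_at, with 4.81, 3.82 and 3.89 in wild type and 6.03, 3.82 and 4.02 in the knockdown, differed by −1.46 (adjusted p = 0.0774).

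The chromosomal passenger complex, made of the kinase Aurora B with its partners, corrects faulty attachments of chromosomes and later acts at the cleavage furrow. All 4 of its genes were below 0 in both comparisons with replicate 1. At the threshold 3 were lower in replicate 3 and 2 in replicate 2. Birc5, the gene of survivin, read 10.96, 9.93 and 9.45 in wild type and 10.60, 9.36 and 9.37 in the knockdown, a difference of −1.37 ± 0.15 (adjusted p = 0.0255). Incenp, the scaffold subunit, read 10.87, 10.00 and 9.78 in wild type and 10.58, 9.90 and 9.83 in the knockdown, a difference of −0.92 ± 0.14 (adjusted p = 0.0391). Cdca8, which encodes borealin, read 9.70, 8.95 and 8.45 in wild type and 9.78, 8.60 and 8.74 in the knockdown, a difference of −1.15 ± 0.18 (adjusted p = 0.0452). In all 3 the replicate 1 arrays stood at the top, and for Birc5 and Cdca8 the arrays of numbers 2 and 3 were mixed. Aurkb, the gene of Aurora B, read 7.62, 7.12 and 6.67 in wild type and 7.71, 6.38 and 6.85 in the knockdown and did not pass (−0.91, adjusted p = 0.119), while its other tested probe set 1424128_x_at differed by −1.51 (adjusted p = 0.0186).

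The spindle checkpoint genes were unequal: Bub1b and Ttk had some of the largest differences of the 44 genes, and Bub3 one of the smallest. Bub1b encodes BubR1, a subunit of the complex that inhibits the anaphase-promoting complex. It read 7.99, 6.65 and 5.51 in wild type and 7.58, 6.55 and 6.04 in the knockdown, a difference of −2.01 ± 0.24 (adjusted p = 0.0268), or 4.03-fold. Ttk, the checkpoint kinase also called Mps1, read 7.85, 6.50 and 5.87 in wild type and 7.60, 6.42 and 6.26 in the knockdown, a difference of −1.66 ± 0.18 (adjusted p = 0.0247). Mad2l1, the gene of the inhibitor Mad2, read 10.42, 9.77 and 9.62 in wild type and 10.29, 9.67 and 9.33 in the knockdown, a difference of −0.88 ± 0.12 (adjusted p = 0.0353). Ttk alone of these 5 genes also passed between replicates 2 and 1 (−1.26, adjusted p = 0.0361). Bub1, a kinetochore kinase, read 9.40, 8.76 and 8.14 in wild type and 9.39, 8.39 and 8.47 in the knockdown and missed the threshold (−1.09 ± 0.19, adjusted p = 0.053). Bub3, a kinetochore protein that carries Bub1 and BubR1, read 12.08, 11.78 and 11.68 in wild type and 12.07, 11.77 and 11.66 in the knockdown. Its difference was −0.40 ± 0.11 (95% interval −0.69 to −0.12, adjusted p = 0.125), with both replicate 1 arrays still above the other 4. A dimmer Bub3 probe set, 1448473_at, differed by −0.59 (adjusted p = 0.116).

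Among 7 kinetochore and centromere genes, 4 were lower in replicate 3 than in replicate 1 at the threshold and 3 in replicate 2. All 7 were below 0 in the former comparison and 6 in the latter. Cenpf, a large protein that gathers at kinetochores in G2, read 8.89, 7.97 and 7.11 in wild type and 9.04, 8.27 and 7.33 in the knockdown. Its difference of −1.74 ± 0.12 had an adjusted p of 0.0172, the lowest of the 44 genes, and replicates 3 and 2 differed by −0.90 (unadjusted p = 4.3e-04). Its arrays fell into 3 levels by replicate number with no overlap. Cenpa, the centromeric histone H3 variant, read 10.70, 10.14 and 9.39 in wild type and 10.65, 9.92 and 9.48 in the knockdown, a difference of −1.24 ± 0.13 (adjusted p = 0.023). Nuf2 and Spc25 encode subunits of the Ndc80 complex, which binds microtubules. Nuf2 read 9.24, 8.22 and 7.56 in wild type and 9.12, 7.56 and 7.41 in the knockdown, a difference of −1.69 ± 0.17 (adjusted p = 0.0225). Spc25 read 8.73, 7.95 and 7.19 in wild type and 8.40, 7.28 and 7.08 in the knockdown, a difference of −1.43 ± 0.16 (adjusted p = 0.026). In both genes knockdown 3 was the lowest array.

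The remaining subunits of the Ndc80 complex did not pass. Spc24 read 10.03, 9.17 and 8.45 in wild type and 9.68, 8.22 and 8.55 in the knockdown, a difference of −1.35 ± 0.25 (adjusted p = 0.0614). Ndc80 read 7.15, 6.61 and 6.47 in wild type and 7.33, 6.22 and 6.61 in the knockdown, a difference of −0.70 ± 0.18 (adjusted p = 0.107). In both, knockdown 2 was the lowest array and the replicate 1 arrays were the highest. Cenpe, the motor that brings chromosomes into line, read 8.32, 8.39 and 7.21 in wild type and 8.28, 8.67 and 8.39 in the knockdown. Only wild type 3 stood apart for Cenpe, and replicate 2 minus replicate 1 was above 0 (0.23, 95% interval −0.52 to 0.98, adjusted p = 0.684).

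The 6 genes of spindle assembly and its motors were the most alike, with differences from −1.57 to −1.40. All 6 were lower in replicate 3 than in replicate 1 at the threshold, and 5 of the 6 also in replicate 2. Kif11, the motor that pushes spindle poles apart, read 8.63, 7.51 and 7.06 in wild type and 8.82, 7.83 and 7.54 in the knockdown, a difference of −1.42 ± 0.13 (adjusted p = 0.019). Nusap1, a protein that bundles spindle microtubules, read 10.27, 9.04 and 8.53 in wild type and 10.51, 9.44 and 9.10 in the knockdown, a difference of −1.57 ± 0.14 (adjusted p = 0.0186). Nek2, a kinase of centrosome separation, read 9.05, 7.90 and 7.49 in wild type and 9.13, 8.09 and 7.64 in the knockdown, a difference of −1.53 ± 0.12 (adjusted p = 0.0186). The arrays of Nek2 fell into 3 levels by replicate number, while for Kif11 and Nusap1 knockdown 3 was slightly above wild type 2. Aurka, the gene of Aurora A, read 9.42, 8.46 and 7.74 in wild type and 9.51, 8.30 and 8.16 in the knockdown, a difference of −1.52 ± 0.17 (adjusted p = 0.0255). Its activator Tpx2 read 8.69, 7.54 and 6.91 in wild type and 8.37, 7.46 and 7.31 in the knockdown, a difference of −1.42 ± 0.19 (adjusted p = 0.0346). Kif2c, a kinesin that takes microtubules apart, read 7.68, 6.96 and 6.48 in wild type and 8.14, 7.00 and 6.54 in the knockdown, a difference of −1.40 ± 0.15 (adjusted p = 0.0247). For all 6 genes wild type 3 was the lowest array.

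The 4 genes of the central spindle and cytokinesis had, between replicates 2 and 1, a median difference of −0.64 and 0 of 4 called in limma (3 of 4 at an unadjusted p under 0.05, against 24% of all tested probe sets). Between replicates 3 and 1, 2 of the 4 passed. Kif23, a motor of the centralspindlin complex, read 8.65, 8.06 and 7.16 in wild type and 8.92, 8.34 and 7.76 in the knockdown, a difference of −1.33 ± 0.14 (adjusted p = 0.0227). Kif20a, a motor that carries the passenger complex to the midzone, read 8.83, 7.91 and 7.21 in wild type and 8.59, 7.83 and 7.62 in the knockdown, a difference of −1.29 ± 0.18 (adjusted p = 0.0377). Wild type 3 stood apart at the bottom for these genes, with a median deviation from the 6-array mean of −0.91 against −0.25 in knockdown 3. Prc1, which bundles the midzone microtubules, read 8.83, 8.03 and 7.19 in wild type and 8.98, 8.40 and 8.13 in the knockdown, just short of the threshold (−1.24 ± 0.21, adjusted p = 0.0505). Its other probe set 1423775_s_at passed, with a difference of −1.42 (adjusted p = 0.0199). Ect2, the exchange factor that activates RhoA at the furrow, read 7.91, 7.61 and 6.76 in wild type and 8.22, 7.51 and 7.53 in the knockdown and did not pass (−0.92 ± 0.22, adjusted p = 0.0917).

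All 6 genes of chromosome condensation were below 0 in both comparisons with replicate 1. At the threshold Top2a and 3 condensin genes were lower in replicates 2 and 3. Top2a, the topoisomerase that untangles sister chromatids, read 11.27, 10.32 and 9.87 in wild type and 11.35, 10.50 and 10.11 in the knockdown, a difference of −1.32 ± 0.12 (adjusted p = 0.0187). Its dim probe set 1442454_at, at 4.41 to 5.22, was the 1 of 27 further tested probe sets of these genes with the opposite sign between replicates 2 and 1 (0.31, adjusted p = 0.439). Ncapg, a condensin I subunit, read 9.52, 8.64 and 8.27 in wild type and 9.29, 8.23 and 8.28 in the knockdown, a difference of −1.13 ± 0.14 (adjusted p = 0.0304). Ncaph, of the same complex, read 8.52, 7.85 and 7.55 in wild type and 8.55, 7.64 and 7.60 in the knockdown, a difference of −0.96 ± 0.13 (adjusted p = 0.0331). The replicate 1 arrays were again on top for both condensin genes, with wild type 2 next. Smc2, a core subunit of both condensins, read 10.17, 9.52 and 9.40 in wild type and 10.22, 9.30 and 9.34 in the knockdown, a difference of −0.83 ± 0.13 (adjusted p = 0.042). Ncapg2, a condensin II subunit, read 10.65, 10.16 and 9.92 in wild type and 10.64, 10.07 and 10.07 in the knockdown and did not pass (−0.65 ± 0.12, adjusted p = 0.063). Smc4, the partner of Smc2, read 13.21, 13.12 and 12.82 in wild type and 13.41, 12.92 and 13.19 in the knockdown. This was the smallest difference among the representative probe sets of the 44 genes (−0.31 ± 0.17, adjusted p = 0.345). Further Smc4 probe sets differed by −0.59 at 1452197_at and −0.49 at 1427276_at (adjusted p = 0.0642 and 0.172).

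All 3 genes of anaphase onset were lower in replicate 3 than in replicate 1 at the threshold. Espl1, the gene of separase, read 7.78, 6.59 and 6.07 in wild type and 7.52, 6.55 and 6.23 in the knockdown, a difference of −1.50 ± 0.14 (adjusted p = 0.0205). Pttg1, the gene of its inhibitor securin, read 10.27, 9.64 and 8.85 in wild type and 10.35, 9.47 and 9.36 in the knockdown, a difference of −1.21 ± 0.19 (adjusted p = 0.0426). Cdc20, which activates the anaphase-promoting complex, read 11.18, 10.86 and 9.94 in wild type and 11.40, 10.50 and 10.26 in the knockdown, a difference of −1.19 ± 0.20 (adjusted p = 0.0471). Among the 3 representative probe sets, that of Espl1 alone also passed between replicates 2 and 1 (−1.08, adjusted p = 0.0332). A further probe set of Cdc20, 1416664_at, passed there as well (−0.94, adjusted p = 0.0449). The promoters of Espl1 and Cdc20 are among those printed above.

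**Figure D2:**
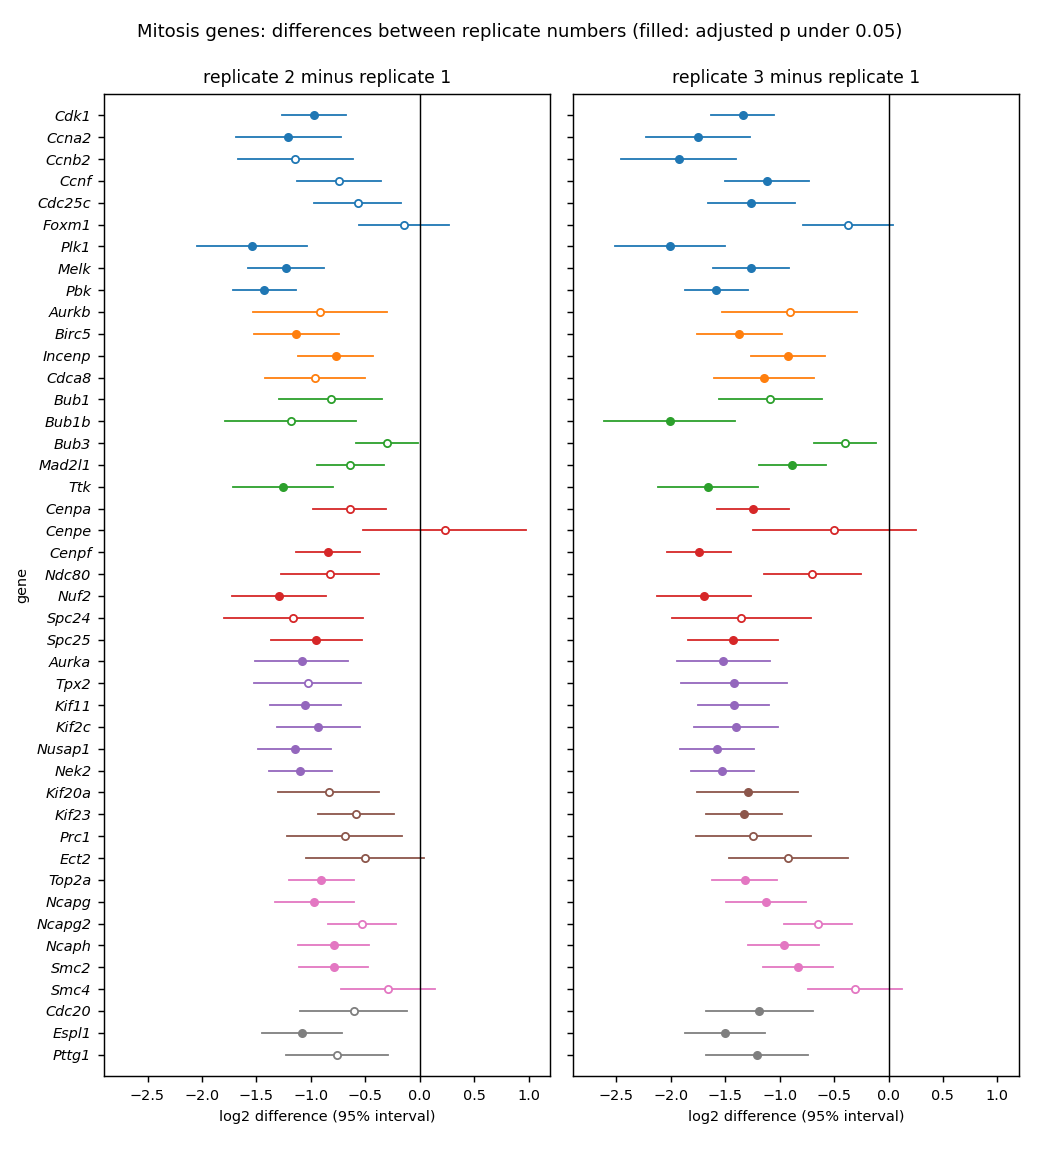
Differences between replicate numbers for 44 mitosis genes (GCRMA log2, group as a term), with 95% intervals as lines and filled points for an adjusted p under 0.05. All but Cenpe lie below 0 on the left (median −0.91), and all lie below 0 on the right (median −1.28).

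Further probe sets of the same genes gave the same picture. Of 27 such probe sets that passed the filter, in 22 genes, 26 were below 0 between replicates 2 and 1 and 27 between replicates 3 and 1. The threshold was passed by 8 and 15 of them, where 1.63% and 1.5% of all tested probe sets were lower. Some genes called above had a further probe set that did not pass between replicates 3 and 1. Examples are Ccnf at 1443807_x_at (−0.53, adjusted p = 0.181), Kif2c at 1454221_a_at (−0.70, adjusted p = 0.12) and Smc2 at 1429658_a_at (−1.14, adjusted p = 0.102). All 27 were measured on the same arrays and are no further replicates.

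The MAS5 summaries of the same arrays gave the same signs but no calls. On the log2(MAS5 + 1) scale all 44 genes kept their sign in both comparisons with replicate 1, with medians of −0.74 and −1.10. Both replicate 1 arrays were above the other 4 for 42 of 44 genes, against 13.7% of all tested probe sets. In limma 0 of 44 genes passed in either comparison (37 and 40 at an unadjusted p under 0.05), where 0.0763% and 0% of all tested probe sets passed (17.8% and 16.9% unadjusted). Adjusted p-values of the 44 genes in MAS5 were 0.0708 to 0.784 and 0.0762 to 0.529. Across the 44 genes the differences of the summaries correlated at 0.83 and 0.75, as a description over genes that share the same 6 arrays.

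Knockdown minus wild type, the comparison of the design, called 0 of the 44 genes in limma, against 0.0117% of all tested probe sets, the 2 probe sets of Ehmt2. Differences ran from −0.52 to 0.49 with a median of 0.01, and the median over all tested probe sets was −0.01. There were 24 genes above 0 and 20 below, where 51.7% of all tested probe sets were below. The wild type and knockdown arrays overlapped for all 44 genes, whereas they did not overlap for 12.4% of all tested probe sets. At an unadjusted p under 0.05 there were 8 of 44 genes (18.2%), against 13.7% of all tested probe sets. Without the replicate number as a block 0 genes passed as well, with a smallest adjusted p of 0.877, against 0.00587% of all tested probe sets.

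Of those 8 genes, Pbk had the lowest adjusted p (0.183). Its mean level was 8.22 ± 0.85 over the wild type arrays and 7.70 ± 0.90 over the knockdown arrays (SD, n = 3), and its differences within replicates 1, 2 and 3 were −0.46, −0.54 and −0.55. The fitted difference of −0.52 (95% interval −0.75 to −0.28) was nearly the same in each pair. Melk differed by −0.35 (−0.64 to −0.07, adjusted p = 0.309), Spc25 by −0.37 (−0.71 to −0.03, adjusted p = 0.341) and Birc5 by −0.34 (−0.66 to −0.02, adjusted p = 0.349). All 4 of these genes were below 0 in all 3 pairs. On the other side, Prc1 had a mean of 8.02 ± 0.82 over the wild type arrays and 8.51 ± 0.43 over the knockdown arrays, its pairs differed by 0.14, 0.38 and 0.94, and it had a fitted value of 0.49 (0.06 to 0.92, adjusted p = 0.334). Nusap1 differed by 0.40 (0.12 to 0.68, adjusted p = 0.27), Kif23 by 0.38 (0.09 to 0.67, adjusted p = 0.289) and Kif11 by 0.33 (0.06 to 0.60, adjusted p = 0.309). These 4 were above 0 in all 3 pairs, with the largest difference in replicate 3. The 8 genes were picked by a p-value from these same pairs, so agreement of sign among the pairs adds no support. In MAS5 all 8 kept their sign, and the size moved by over 1.5 times for Pbk (−0.26), Melk (−0.55), Prc1 (0.17), Nusap1 (0.22) and Kif11 (0.13). Without replicate 2 Spc25 had −0.22 and Birc5 −0.22, and without replicate 3 Prc1 had 0.26.

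By role, the central spindle and cytokinesis genes were all 4 above 0, with a median of 0.35 and with 0.03 for Kif20a. Their median differences within replicates 1, 2 and 3 were 0.20, 0.10 and 0.68, so the pairs were unequal. The spindle assembly genes had a median of 0.16. The 7 kinetochore and centromere genes had a median of −0.06, with 0.47 for Cenpe and 0.22 for Cenpf. The 4 subunits of the Ndc80 complex among them were below 0, with −0.02 for Ndc80, −0.31 for Nuf2, −0.40 for Spc24 and −0.37 for Spc25. Of these, Nuf2 and Spc25 were below 0 in all 3 pairs. Ndc80 was above 0 in replicates 1 and 3 (0.18 and 0.14) and in MAS5 (0.06), and Spc24 in replicate 3 (0.10). The passenger complex genes had a median of −0.14, the checkpoint genes of −0.01 and the condensation genes of −0.01. Further probe sets did not always side with these: Kif11 had −0.05 at 1452314_at, Tpx2 had 0.79 at 1428105_at beside 0.00 at its representative (adjusted p = 0.24), and Kif23 had 0.06 at 1453748_a_at. In all, 21 of 27 further probe sets had the sign of the representative.

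The pairs of arrays did not move alike. In replicate 1 the median knockdown minus wild type difference over the 44 genes was 0.01. There 22 genes were above 0 (50%), against 42.4% of all tested probe sets. In replicate 2 the median was −0.10, with 11 genes above 0 (25%), against 49.6% of all tested probe sets. In replicate 3 it was 0.23, with 36 above 0 (81.8%), against 52.2% of all tested probe sets. Cenpe shows the spread: its differences were −0.04, 0.28 and 1.19, around a mean of 7.97 ± 0.66 over the wild type arrays and 8.45 ± 0.20 over the knockdown arrays. The same sign in all 3 pairs was found for 16 of the 44 genes, beside 6453 of the 17028 tested probe sets. Leaving out both replicate 3 arrays moved the median from 0.01 to −0.09, and leaving out both replicate 2 arrays moved it to 0.10. MAS5 gave 36 of 44 genes the same sign (r = 0.82 across genes), with 0 called in limma, as 0% of all tested probe sets, and 4 at an unadjusted p under 0.05, against 10.6%.

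**Figure D3:**
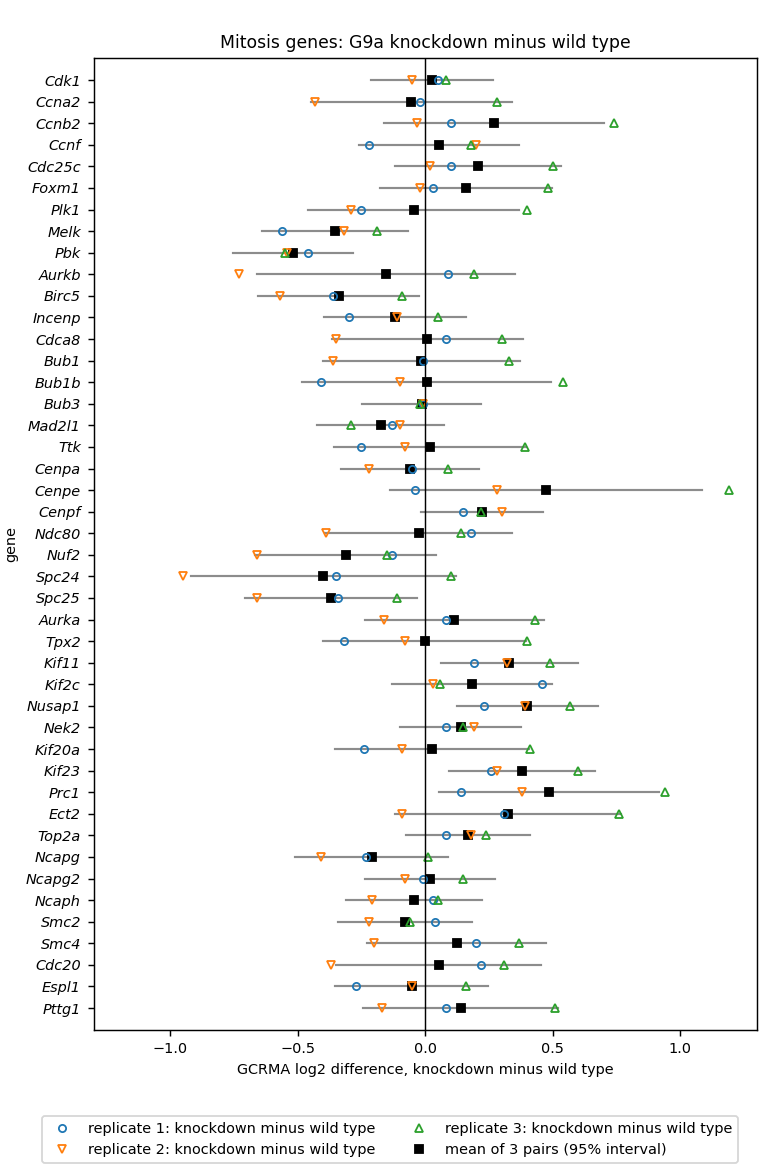
Knockdown minus wild type for 44 mitosis genes (GCRMA log2): black squares with lines are the fitted mean of 3 pairs and its 95% interval, and open symbols are the 3 pairs. The fitted values lie between −0.52 and 0.49, and the replicate 3 pair (green triangles) is above 0 for 36 genes.

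**Figure D4:**
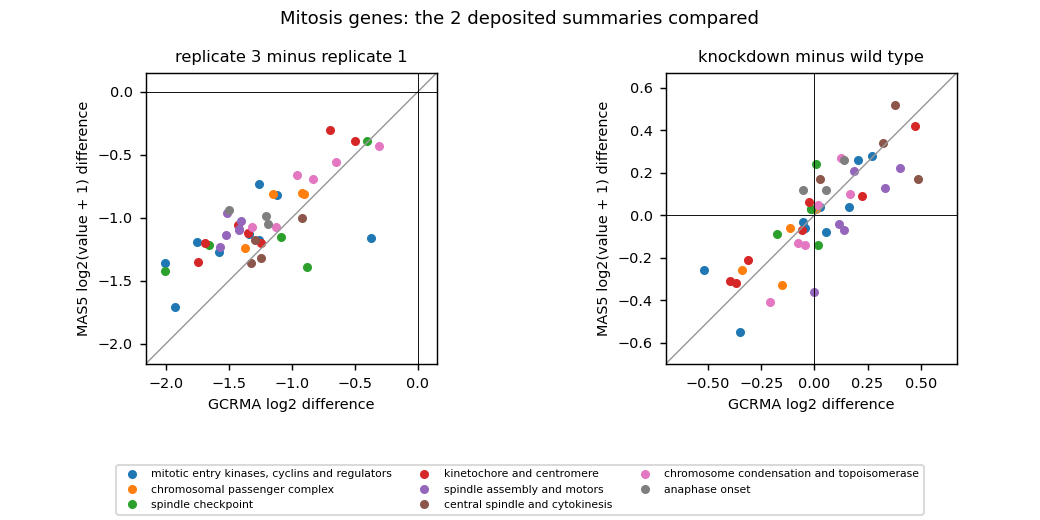
Differences of the 44 mitosis genes in GCRMA (horizontal, log2) and in MAS5 (vertical, log2 of value + 1), for replicate 3 minus replicate 1 and for knockdown minus wild type, colored by role, with the diagonal in gray. All 44 points are below 0 on both axes on the left, and 36 of 44 have the same sign on both axes on the right.

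Other genes of mitosis and of the cell cycle, taken from 7 lists without the 45 genes above, showed how far the differences between replicate numbers reached. Of 160 listed genes 149 were tested, with a median difference of −0.53 between replicates 3 and 1. At the threshold 42 were lower, against 1.5% of all tested probe sets, and 1 was higher. The counts of lower genes in each list are at the same threshold, beside the same share. Further kinetochore and centromere genes had a median of −0.72, with 13 of 34 lower, among them Sgo2a (−1.69, adjusted p = 0.0186), a protector of centromeric cohesion, and Knl1 (−1.39, adjusted p = 0.0205), the scaffold for Bub1. Further spindle and motor genes had a median of −0.88, with 11 of 26 lower, among them Aspm (−1.64, adjusted p = 0.0186), a spindle pole protein, and Kif4 (−1.62, adjusted p = 0.0186), a chromosome-bound kinesin. The 1 gene that was higher was Kif3a (1.71, adjusted p = 0.0395), a kinesin of transport and cilia, where 1.54% of all tested probe sets were higher. Of 5 further cytokinesis genes, 3 were lower: Racgap1 (−1.31), Anln (−1.16) and Cit (−1.06), with adjusted p-values of 0.0227 to 0.0304.

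The medians of 3 further lists lay nearer 0. Genes counted as lower passed the threshold, where 1.5% of all tested probe sets were lower. The 16 genes of the anaphase-promoting complex and its partners had a median of −0.14, and the 2 that were lower were Ube2c (−1.58, adjusted p = 0.0186), its E2 enzyme, and Fbxo5 (−0.81, adjusted p = 0.0377), its inhibitor. The 19 other regulators of mitotic entry had a median of −0.12, and Cdc25b (−1.09, adjusted p = 0.0318) and Cks1b (−1.05, adjusted p = 0.024) were lower. Cohesin and further condensin genes had a median of −0.19, and 3 of 15 were lower: Cdca5 (−1.72), the gene of sororin, Esco2 (−1.21), a cohesin acetyltransferase, and Ncapd2 (−1.11), with adjusted p-values of 0.022 to 0.0464. The genes named in these counts were chosen after their values were seen.

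DNA replication genes, which act in S phase, differed between replicates 2 and 1 about as much as between replicates 3 and 1, with medians of −0.67 and −0.72. At the threshold 10 and 8 of 34 were lower, against 1.63% and 1.5% of all tested probe sets. Among them was Mcm5 (−1.11 and −0.94, adjusted p = 0.026 and 0.0343), a subunit of the replicative helicase. In the mitosis genes the medians were −0.91 and −1.28, and the difference between these lists was not tested. Knockdown minus wild type called 0 of the 34 replication genes in limma, with a median of −0.18 and 12 at an unadjusted p under 0.05 (35.3%, against 13.7% of all tested probe sets). Rrm2, the ribonucleotide reductase subunit whose level limits the enzyme, read 9.66, 8.93 and 9.17 in wild type and 8.90, 7.54 and 7.83 in the knockdown. This amounted to −1.16 (95% interval −1.55 to −0.77, adjusted p = 0.167).

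**Figure D5:**
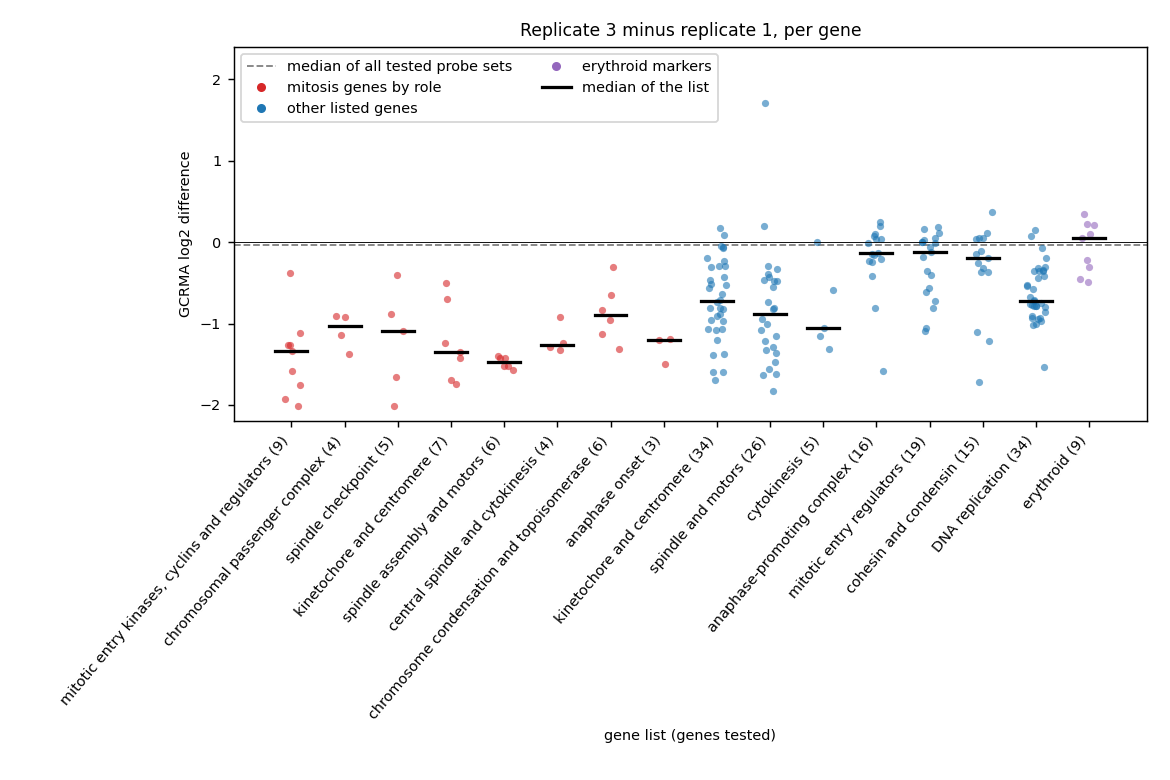
Replicate 3 minus replicate 1 for each tested gene (GCRMA log2, vertical), by list (horizontal, number of genes in brackets): mitosis genes by role in red, other listed genes in blue and erythroid markers in purple, with black bars for medians. The medians of the red lists lie between −1.47 and −0.90, that of the erythroid markers is 0.05, and the dashed line is the median of all tested probe sets, −0.04.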

How the data were processed

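Each of the 6 arrays was deposited in both a MAS5 and a GCRMA column, per the labels and the submitters' processing notes. The sources used here do not give their versions. The authors' deposited MAS5 values are linear intensity with a 2% trimmed mean of 500 in each array. The deposited GCRMA columns hold log2 values. The 12 columns were treated as 6 arrays. Probe sets were named from the platform annotation (1 gene for 34958 of 45101 probe sets), and a RefSeq gene table of GRCm38.p6 served for names.

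GCRMA values were fitted with limma 3.58.1 in R 4.3.3 (lmFit, eBayes; group and replicate number as terms) over 17028 probe sets that exceeded log2 4 in 3 or more arrays, without 64 control probe sets. P-values were adjusted by Benjamini-Hochberg over all of them. The fit has 2 residual degrees of freedom and a prior of 3.36, and the number of arrays limits the precision. MAS5 was fitted likewise as log2(value + 1). The steps were checked on simulated data.

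For arrays of the same number, deviations from the group means correlated at 0.718, 0.574 and 0.373 between groups, and at −0.591 to 0.169 between different numbers. Deviations sum to 0 over the 3 arrays of a group, which pulls correlations between different numbers below 0. Wild type 3 correlated at 0.373 with knockdown 3 and at 0.169 with knockdown 2, so numbers 2 and 3 were told apart less clearly. The labels do not state that arrays of the same number are paired. The genes and lists were chosen with earlier results of these data known. Values for all 6 arrays were printed for genes passing any comparison and for up to 4 more per role by lowest p; other genes by lowest knockdown p in their list, or where named as counted. No set test was run.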

Additional observations from a re-analysis of the deposited data

How the results depend on the processing

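Knockdown minus wild type called 2 probe sets, both of Ehmt2. With no replicate block it called 1, with MAS5 values 0, with no filter on low values 0, with a filter at log2 6 it called 8 and with array weights 4. Leaving out both arrays of a replicate number gave 0 to 1. The mitosis genes called were 0 under each of these settings, and their median of 0.01 ranged from −0.09 to 0.10. Dropping the replicate block cannot move this median, because each replicate number has 1 array of each group. Dropping the block changed the call of Ehmt2 probe set 1460692_at, from an adjusted p of 0.0316 to 0.0719. The counts of mitosis genes lower than in replicate 1 were 21 for replicate 2 and 33 for replicate 3, and the F test called 24. With no filter on low values, which brings 45037 probe sets into the adjustment in place of 17028, they were 2, 3 and 0. MAS5 values gave 0, 0 and 0, and a median between replicates 2 and 1 of −0.74 in place of −0.91; the cause was not tested. A filter at log2 6 gave 30, 36 and 35, a shift of arrays to 1 median 25, 35 and 28, and array weights 28, 26 and 22. No sign of a median between replicate numbers turned under any setting run. With 2 arrays per replicate number, differences between numbers 3 and 2 of the size seen were not called.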
